A study of Mus musculus with 2 samples.

Results

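The C/EBP transcription factors followed here are Cebpa, Cebpb, Cebpd and Cebpe, which encode C/EBPα, C/EBPβ, C/EBPδ and C/EBPε. They were picked by name, with earlier results of these data known, and make up 4 of the 54736 gene symbols of the spliced count matrix. All 4 were detected in every condition and passed the filter on low values in every comparison. The cells are mouse acute myeloid leukemia cells named 63.3, grown with 0.5 µM beta-estradiol and 1% conditioned medium that supplies stem cell factor. The study set 2 series of 5 cultures side by side, to compare an inhibitor of pyrimidine synthesis with removal of the hormone. Cells of the brequinar series received 2 µM brequinar, which inhibits dihydroorotate dehydrogenase, for 6, 12, 24 or 48 h with beta-estradiol still present. Cells of the withdrawal series were washed and kept without beta-estradiol for the same times. Each series has its own 0 h culture, and the labels do not say whether the 0 h culture of the brequinar series received solvent. All 10 cultures come from 1 cell line, whose genotype and any hormone-dependent construct the labels do not give. No culture left untreated for 6 to 48 h was analysed here, so treatment and time in culture cannot be told apart.

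C/EBP proteins are basic leucine zipper factors. They pair through the zipper and bind DNA through the basic region next to it, as pairs of the same or of different family members. In the granulocyte lineage C/EBPα is needed for progenitors to commit, C/EBPβ serves granulocyte production under stress and macrophage gene expression, C/EBPδ belongs to the inflammatory and acute phase response, and C/EBPε is needed for the late steps, including the secondary granule genes of neutrophils and granule genes of eosinophils. Long and short proteins of C/EBPα and C/EBPβ arise from different start codons of the same mRNA, so counts of RNA do not tell them apart.

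The members lie on different chromosomes of the mouse genome (build GRCm38, GENCODE M21 annotation): Cebpa at chr7:35119293-35121928 and Cebpb at chr2:167688915-167690418 on the plus strand, Cebpd at chr16:15887286-15891031 on the plus strand, and Cebpe at chr14:54710360-54712174 on the minus strand. The longest coding transcript of Cebpa and the only ones of Cebpb and Cebpd have 1 exon, and that of Cebpe has 2. Without an intron, nuclear RNA of the first 3 counts as spliced. The coding stretch below is shown because alike stretches are where a read could be given to the wrong member. It is the longest run of codons for the same residues in all 4, 17 codons in the basic region, and lies within 1 exon of each gene. Capitals mark the 9 positions at which the members differ.
Cebpa, chr7:35120283-35120333, plus strand: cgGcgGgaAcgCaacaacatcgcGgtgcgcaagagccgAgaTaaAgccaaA
Cebpb, chr2:167689703-167689753, plus strand: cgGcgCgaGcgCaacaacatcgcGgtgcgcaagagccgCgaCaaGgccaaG
Cebpd, chr16:15887913-15887963, plus strand: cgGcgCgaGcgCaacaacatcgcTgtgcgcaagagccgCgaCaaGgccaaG
Cebpe, chr14:54710707-54710757, minus strand: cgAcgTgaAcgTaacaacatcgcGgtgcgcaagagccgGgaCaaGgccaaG
Cebpb and Cebpd share 50 of these 51 bases (98.0%), and the least alike pairs share 44 (86.3%). Over their whole transcripts no pair shares any run of 31 bases. Genes on the opposite strand overlap 3 of the members, and the counting's use of strand is not given in the sources used here. Spidr, which shares 562 exon bases with Cebpd, stood at 6.67 to 16 CPM (counts scaled to 1000000 UMIs per culture), Tmem189, which overlaps Cebpb, at 0.201 CPM or less, and Gm45091, which overlaps Cebpa, at 0.0762 CPM or less.

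The 10 conditions hold 12540 cells, 528 to 1536 each, and 5236694 to 19931921 spliced molecules counted by unique molecular identifiers (UMIs). Cells of the 48 h withdrawal culture were shallowest, with a median of 6509 UMIs, and those of its 0 h culture deepest, with 15229. All 8 markers of myeloid leukemia progenitors were detected, at 1650 to 3873 CPM in sum. In the cultures with the lowest and highest sum the granule gene Mpo alone stood at 931 and 2859 CPM. The range of the sum therefore does not describe each marker. The summed markers of T cells stayed at 0 to 0.376 CPM, of stroma at 0 to 1.75 CPM and of erythroid cells at 0.583 to 8.62 CPM, with Cd4 and Cdh5 at 0 in all conditions. The 4 B cell markers summed to 3.46 to 33.2 CPM, mostly Cd79a, which stood at 32.7 CPM at 24 h and 28.6 CPM at 48 h of brequinar. Its part in the results was not tested. Each condition is 1 culture, so there is no test between conditions, and the 95% intervals given with levels and ratios are exact and cover counting error only. A gene is called higher or lower when it reaches 20 CPM in either culture and the CPM differ at least 1.5-fold. "Rose" and "fell" below stand only for such calls. Fewer cells that express a gene and less RNA per cell cannot be told apart in a culture's sum. Shares of cells with a UMI, given further on, go up with the level too and do not tell them apart by themselves.

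Together the members became more abundant in both series. Their summed level went from 491 to 1619 CPM with brequinar and from 492 to 1684 CPM with withdrawal between 0 and 48 h. The make-up of that sum changed at each time. Cebpb held 53.6% of the family's UMIs at 0 h of the brequinar series and 80.5% at 6 h, and Cebpe held 48.6% at 24 h. In the withdrawal series Cebpb held 55.2% at 0 h and 74.6% at 6 h, and Cebpe 53.9% at 24 h. Cebpa went from 11.9% in both 0 h cultures to 4.88% with brequinar and 1.85% with withdrawal at 48 h. These shares compare UMIs at transcript 3′ ends with no division by length, so they rank capture as well as abundance.

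**Figure D1:**
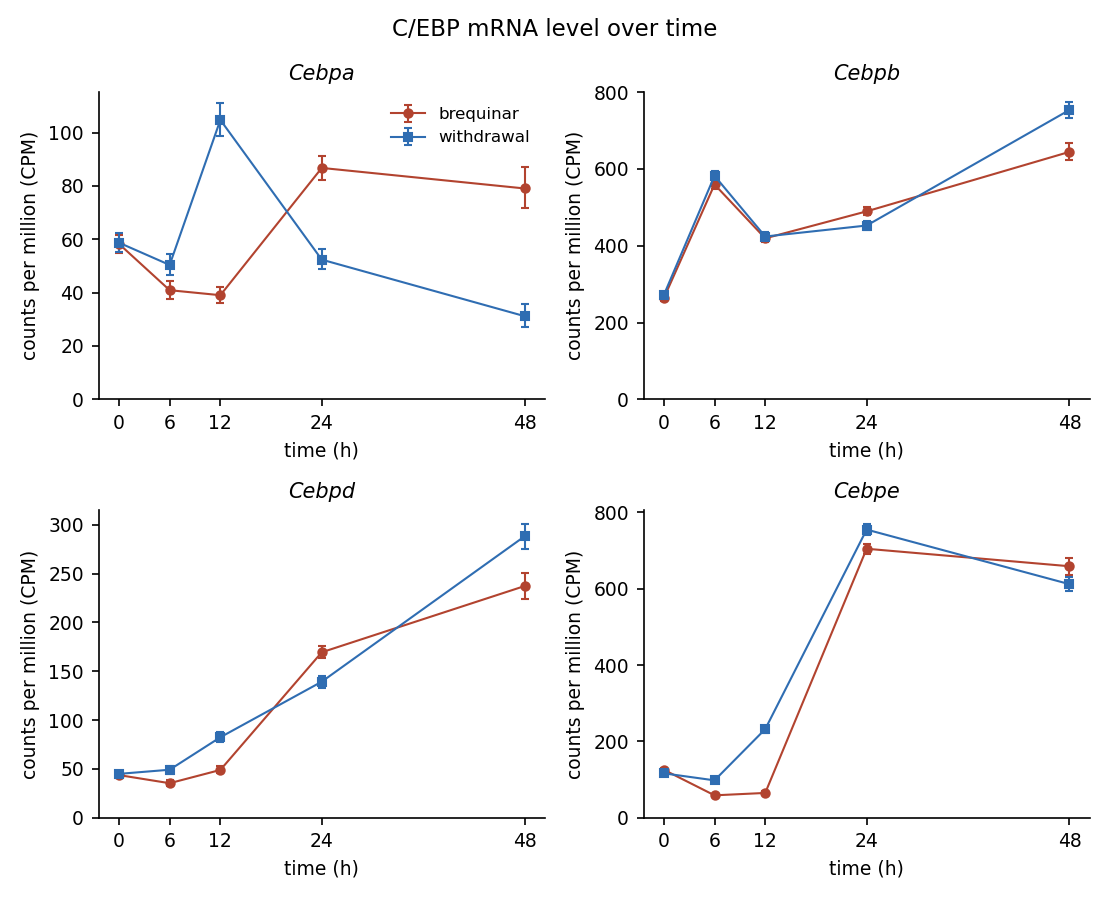
Level of each C/EBP mRNA in CPM (vertical axis, from 0) against time in hours, with brequinar in red circles and withdrawal in blue squares; each point is 1 culture and bars are exact 95% counting intervals. Cebpb is highest relative to its start at 6 and 48 h in both series, Cebpd and Cebpe climb by 24 h, and Cebpa crosses between the series, 105 CPM at 12 h of withdrawal and 86.8 CPM at 24 h of brequinar.

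Cebpa, the factor of commitment to the granulocyte lineage, followed different courses in the 2 series. With brequinar it stood at 58.3, 40.9, 39, 86.8 and 79.1 CPM at 0, 6, 12, 24 and 48 h. With withdrawal it stood at 58.7, 50.4, 105, 52.4 and 31.2 CPM. The brequinar cultures were thus lowest at 6 and 12 h and highest at 24 h, whereas the withdrawal cultures had a peak at 12 h and their lowest level at 48 h. Against 0 h Cebpa rose 1.78-fold (1.64 to 1.94) at 12 h of withdrawal and fell to 0.531-fold (0.456 to 0.615) at 48 h. No brequinar culture passed the call, with ratios of 0.702 (0.632 to 0.778) at 6 h, 0.670 (0.607 to 0.739) at 12 h, 1.49 (1.38 to 1.61) at 24 h and 1.36 (1.21 to 1.52) at 48 h. All 4 intervals leave out 1. From 6 to 12 h of brequinar the ratio was 0.954 (0.849 to 1.07), and from 24 to 48 h 0.911 (0.815 to 1.02), so these neighbours did not differ beyond counting error. Cebpa lies near the call in 3 of these comparisons. At 12 h of brequinar it was called lower under 4 alternatives (0.637 to 0.656) and at 24 h higher under 3 (1.5 to 1.58), and at 48 h of withdrawal it was not called lower with median-of-ratios scaling (0.676). That scaling sets the 48 h withdrawal culture apart by -0.34 and the 24 h brequinar culture by 0.11 on the log2 scale, and the others by less than 0.1. The median log2 ratio of all genes to 0 h at 48 h of withdrawal was -0.33.

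Cebpb, the factor of stress granulopoiesis, was higher at every later time in both series. With brequinar it stood at 263, 559, 419, 489 and 644 CPM at 0, 6, 12, 24 and 48 h. With withdrawal it stood at 271, 582, 424, 453 and 753 CPM. Each series thus had an early peak at 6 h, a lower level at 12 h and its highest level at 48 h. At 6 h Cebpb rose 2.12-fold (2.05 to 2.20) with brequinar and 2.14-fold (2.07 to 2.22) with withdrawal. At 48 h it rose 2.45-fold (2.34 to 2.55) and 2.78-fold (2.67 to 2.89). Between 6 and 12 h the level went down by a ratio of 0.749 (0.725 to 0.775) with brequinar and 0.728 (0.702 to 0.756) with withdrawal, both beyond counting error and short of the call.

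The promoter of Cebpb is shown because its early rise was nearly the same size in both series. It comes from RefSeq (build GRCm38.p6), whose table matched 2 of the 4 members, and covers the 250 bases before the start of the gene at chr2:167688665-167688914 on the plus strand, with 81.6% G and C. Capitals mark the letters TGACG on either strand, the core of the cyclic AMP response element that ATF and CREB factors bind.
Cebpb: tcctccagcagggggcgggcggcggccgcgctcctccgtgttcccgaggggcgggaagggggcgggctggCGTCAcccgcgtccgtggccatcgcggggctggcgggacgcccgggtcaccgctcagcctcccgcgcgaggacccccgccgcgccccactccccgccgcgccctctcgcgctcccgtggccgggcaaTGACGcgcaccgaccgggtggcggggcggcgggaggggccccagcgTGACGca
The 3 matches begin 180, 53 and 7 bases before the start and do not overlap each other. Of 27025 promoters of the same length, 17.9% hold at least 1 match and 0.696% hold at least 3. These promoters were not matched for G and C content, so the shares are no like background for this one. The promoter of Cebpa, the other member in that table, held no TGACG. Letters of a C/EBP site and of a TATA box were also searched and had no match before Cebpb. A match describes letters only.

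Cebpd, the inflammatory and acute phase member, was highest at 48 h in both series. With brequinar it stood at 43.7, 35.4, 49.0, 169 and 237 CPM at 0, 6, 12, 24 and 48 h. With withdrawal it stood at 45.0, 49.2, 82.5, 139 and 288 CPM. The withdrawal cultures were higher from 12 h on, while the brequinar cultures were near the 0 h level until 12 h. Cebpd rose 3.87-fold (3.59 to 4.18) at 24 h and 5.42-fold (4.97 to 5.92) at 48 h of brequinar. With withdrawal it rose 1.83-fold (1.67 to 2.02) at 12 h, 3.10-fold (2.86 to 3.36) at 24 h and 6.40-fold (5.90 to 6.95) at 48 h. The step from 12 to 24 h of brequinar was 3.46-fold (3.19 to 3.75).

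Cebpe, the factor of terminal granulocyte maturation, had the widest range of levels and with brequinar went down before it went up. It stood at 126, 58.9, 65.2, 704 and 659 CPM at 0, 6, 12, 24 and 48 h of brequinar. With withdrawal it stood at 116, 98.1, 232, 755 and 612 CPM. The brequinar cultures at 6 and 12 h lay below all others, and the 24 and 48 h cultures of both series lay far above the rest. With brequinar Cebpe fell to 0.468-fold (0.431 to 0.508) at 6 h, where 0.256% of the genes tested had a lower ratio, and to 0.518-fold (0.481 to 0.557) at 12 h. It then rose 5.60-fold (5.36 to 5.85) against 0 h at 24 h and 5.23-fold (4.97 to 5.51) at 48 h. The 24 h level was 10.8 times (10.1 to 11.5) that at 12 h. With withdrawal the ratio at 6 h was 0.842 (0.784 to 0.904), short of the call, and Cebpe rose 1.99-fold (1.88 to 2.11) at 12 h, 6.48-fold (6.19 to 6.79) at 24 h and 5.25-fold (4.98 to 5.53) at 48 h. In both series the 48 h level in CPM was somewhat below that at 24 h. The ratios were 0.935 (0.900 to 0.971) with brequinar and 0.811 (0.782 to 0.840) with withdrawal, both short of the call. Of the genes tested, 46.5% and 43.3% had a lower ratio in these steps, so Cebpe lay near the middle of all genes.

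Each count of members called is given beside the share of all tested genes called in the same comparison. At 6 h of brequinar 1 member was higher and 1 lower, with 8.82% of all genes higher and 4.97% lower. At 12 h of brequinar 1 was again higher and 1 lower, with 13.5% of all genes higher and 4.67% lower. At 24 h 3 members were higher and none lower, with 29.2% of all genes higher and 13.8% lower. The same counts held at 48 h, with 25.7% and 17.3% of all genes. With withdrawal 1 member was higher and none lower at 6 h, with 12.3% of all genes higher and 8.11% lower. All 4 were higher at 12 h, with 13.4% of all genes higher and 11.2% lower. At 24 h of withdrawal 3 were higher and none lower, with 9.46% and 11.9% of all genes. At 48 h 3 were higher and 1 lower, with 21.5% and 40.7% of all genes. The shares of all genes called were largest in the 24 and 48 h brequinar cultures and the 48 h withdrawal culture. Over the 4 times this makes 10 calls of 16 with brequinar and 12 of 16 with withdrawal.

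Brequinar and withdrawal were compared at matched times to show where the courses part. The 0 h cultures had ratios of 0.971 to 1.08 for the members and no call, with 0% of all genes higher and 0.0546% lower. The ratio of Cebpe there was 1.08 (1.02 to 1.14), so even these cultures differed by more than counting error. At 6 h Cebpe was lower with brequinar, at a ratio of 0.600 (0.548 to 0.658), with 1.45% of all genes called lower and 1.9% higher. With every cell weighted equally that ratio was 0.696, short of the call. At 12 h 3 of the 4 were lower with brequinar and none higher, with 7.33% of all genes lower and 13.2% higher. The ratios were 0.281 (0.261 to 0.302) for Cebpe, 0.373 (0.337 to 0.411) for Cebpa and 0.594 (0.539 to 0.655) for Cebpd, whereas that of Cebpb was 0.989 (0.952 to 1.03).

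At the later times only Cebpa among the members differed between the series by the call. It was higher with brequinar at 24 h, 1.66-fold (1.52 to 1.81), and at 48 h, 2.54-fold (2.14 to 3.0), where 29.6% and 37.6% of all genes were called higher and 8.05% and 8.57% lower. The ratio of Cebpe was 0.933 (0.909 to 0.958) at 24 h and 1.08 (1.03 to 1.13) at 48 h, the latter the same as between the 0 h cultures. At 48 h Cebpb stood at a ratio of 0.855 (0.819 to 0.893) and Cebpd at 0.823 (0.766 to 0.884). With median-of-ratios scaling these were 0.665 and 0.641 and called lower, and Cebpa at 24 h was 1.48 and not called. In all, 6 of 16 comparisons between the series passed the call.

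For most members the share of cells with a UMI ran with the level. Cells were thinned to 2500 UMIs each, leaving out shallower ones, because depth differs between cultures. This kept 10949 cells, 81.3% to 97.5% of each condition. A Cebpe UMI was then found in 22.4%, 12.1%, 13.0%, 56.8% and 51.8% of cells at 0, 6, 12, 24 and 48 h of brequinar, and in 22.8%, 19.4%, 35.4%, 72.5% and 60.4% with withdrawal. At full depth the highest shares were 80.5% and 82.5%, at 24 h of brequinar and of withdrawal. At 24 h the thinned share was thus lower with brequinar although the CPM were 704 and 755. Positive cells held 3.14 Cebpe UMIs on average with brequinar and 2.58 with withdrawal. The 10% of thinned cells richest in Cebpe held 45.6% of its UMIs with brequinar and 31.5% with withdrawal. The highest count in any cell at full depth was 93 UMIs, at 24 h of brequinar.

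Cebpb was the member found in most cells at 0 h, in 46.4% and 46.0% of thinned cells. At 6 h it was found in 73.1% with brequinar and 73.8% with withdrawal, and at 48 h in 75.1% and 77.4%. The early rise of Cebpb thus came with more cells that had a UMI in both series. At 2500 UMIs per cell such a share goes up with the level even if every cell rises alike. Whether more cells expressed Cebpb was not tested. Cebpd went from 9.85% to 39.6% with brequinar and from 10.9% to 48.3% with withdrawal between 0 and 48 h. Cebpa, the least often found at 48 h, reached 23.4% of cells at 12 h and 7.43% at 48 h of withdrawal, and 19.3% at 24 h of brequinar. At full depth these Cebpa shares were 48.3%, 17.8% and 52.0%. Over the 10 conditions the full-depth shares ran from 81.1% to 96.6% for Cebpb and from 26.9% to 73.3% for Cebpd. No cell type that lacks the family was present to set a background. Barcodes of few UMIs, which hold free RNA, carried Cebpa at 80.5, Cebpb at 475, Cebpd at 129 and Cebpe at 282 CPM. If such RNA made up 5% of a cell of 2500 UMIs, 1.00%, 5.77%, 1.60% and 3.47% of cells would show a UMI, below every share measured.

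**Figure D2:**
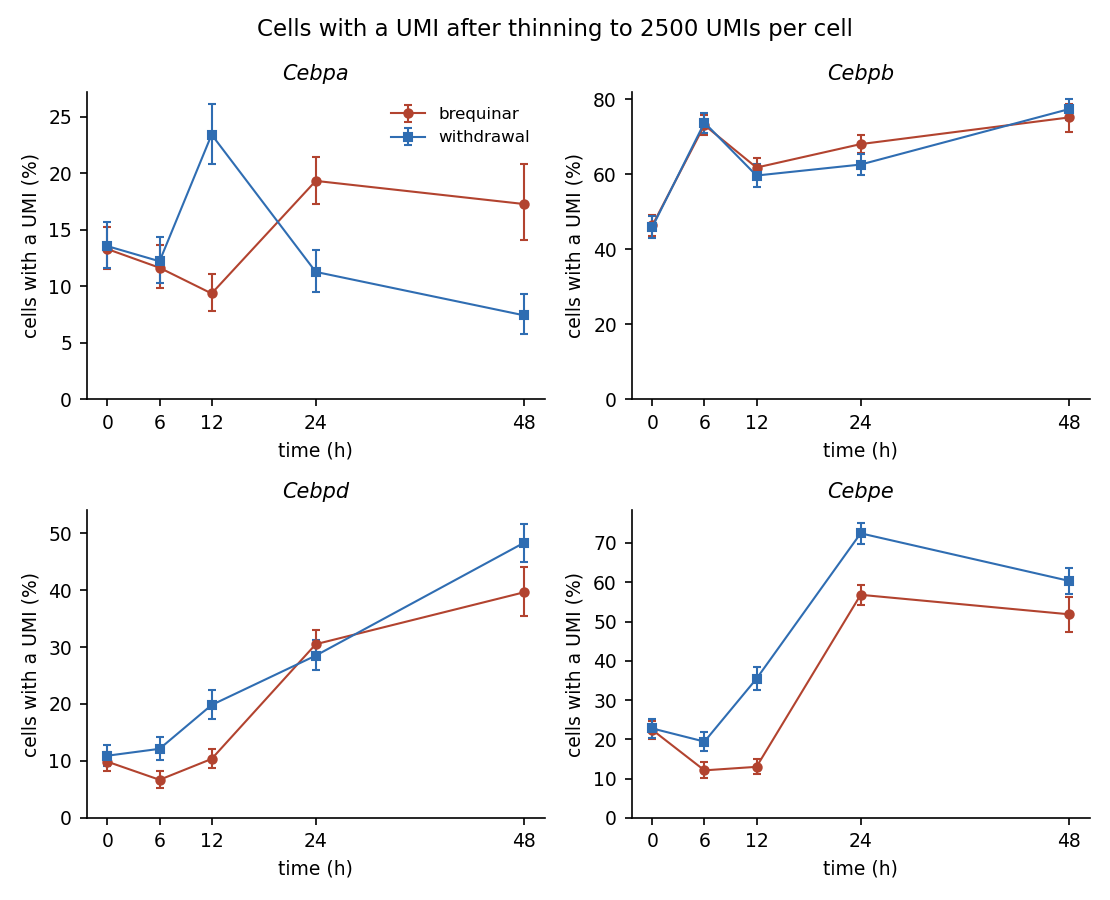
Percent of cells with at least 1 UMI of each member (vertical axis, from 0) after thinning every cell to 2500 UMIs, against time in hours, with brequinar in red circles and withdrawal in blue squares; bars are exact 95% binomial intervals for cells of 1 culture. Cebpe reaches 56.8% of cells with brequinar and 72.5% with withdrawal at 24 h.

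More cells also had UMIs of several members at once, as the levels went up. Cells with no UMI of any member went from 33.8% to 7.38% between 0 and 48 h of brequinar and from 33.2% to 2.14% with withdrawal. Cells with 3 members went from 2.52% to 22.9% and from 3.50% to 22.9%. Within a condition, cells with and without a Cebpe UMI were compared for the other members. At 24 h of brequinar a Cebpd UMI was found in 33.2% (29.9% to 36.5%) of cells with Cebpe and 27.0% (23.5% to 30.7%) of cells without. At 48 h of withdrawal the shares were 48.1% (43.8% to 52.5%) and 48.6% (43.2% to 53.9%). A Cebpb UMI was found at 24 h of brequinar in more of the cells with Cebpe, 72.6% (69.4% to 75.6%), than of those without, 62.0% (58.1% to 65.9%). The order was the opposite at 48 h of withdrawal, where the shares were 71.8% (67.8% to 75.6%) with Cebpe and 85.8% (81.7% to 89.3%) without.

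Cells were also split into S, G2/M and G1-like classes by scores on S phase and G2/M genes, since the make-up of the cultures differed. At 0 h 59.7% of the thinned cells of the brequinar series and 61.0% of the withdrawal series were G2/M-class. G1-like cells were 6.04% and 5.03% there. The classes are scores of RNA and were not checked against DNA content, so they need not equal phases. G2/M-class cells were 88.3% of the thinned cells with brequinar and 51.3% with withdrawal at 24 h, and G1-like cells 61.1% at 48 h of withdrawal. At 6 h of brequinar Cebpb stood at 536, 564 and 579 CPM in G1-like, S and G2/M cells, against 321, 251 and 267 CPM at 0 h, so it was higher in every class. Cebpe at 24 h of withdrawal stood at 939.8, 704 and 744 CPM in these classes. At 24 h of brequinar it stood at 370, 399 and 747 CPM, with 41, 127 and 1265 cells. Cebpa at 12 h of withdrawal stood at 106, 92.0 and 108 CPM, against 45.2, 48.0 and 65.3 CPM at 0 h. With cells weighted to the class shares of 0 h, the calls were 11 of 16 with brequinar, 12 of 16 with withdrawal and 6 of 16 between the series. The share of all genes called was not computed with these weights.

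Genes whose products pair with C/EBP proteins or belong to the same bZIP class were high at 6 h, when Cebpb was. Cebpg, which encodes a short partner of the C/EBPs, rose 2.14-fold (1.99 to 2.29) with brequinar and 1.73-fold (1.60 to 1.87) with withdrawal. Ddit3, which encodes CHOP, a stress-induced C/EBP partner that hinders binding to the usual sites, rose 2.39-fold (2.31 to 2.47) and 2.61-fold (2.52 to 2.70). Atf4, the factor of the amino acid response, rose 1.67-fold (1.61 to 1.74) and 1.66-fold (1.59 to 1.73). Of the 6 genes listed, 4 reached 20 CPM. For this and the later lists, the shares of all genes called are those given above for each comparison. With brequinar 3 of these 4 were higher at 6 h (median log2 ratio 0.89, all genes 0.05), and with withdrawal all 4 were, with Batf as the fourth (median 0.73, all genes 0.06). By 24 h of brequinar none was higher and Atf4 had fallen to 0.355-fold (0.334 to 0.377). At 48 h, when Cebpb was highest in both series, none was higher, and Cebpg fell to 0.593-fold (0.518 to 0.676) with withdrawal.

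Of 13 genes that encode factors acting on C/EBP genes or proteins, 7 of 12 measured were higher at 48 h of brequinar and none lower (median log2 ratio 0.97, all genes 0.04). At 48 h of withdrawal 7 of 12 were higher and 3 lower (median 0.85, all genes -0.33). Of all genes, 25.7% were higher and 17.3% lower at 48 h of brequinar, and 21.5% and 40.7% at 48 h of withdrawal. Spi1, which encodes the myeloid regulator PU.1, rose 3.71-fold (3.54 to 3.88) with brequinar and 3.82-fold (3.66 to 3.99) with withdrawal. Runx1, a regulator of Cebpa in progenitors, rose 2.77-fold (2.44 to 3.14) and 2.46-fold (2.17 to 2.80). Id2, which encodes an inhibitor of helix-loop-helix factors, rose 4.87-fold (3.77 to 6.30) and 44.3-fold (36.4 to 54.4). Trib1, an adaptor for C/EBPα degradation, rose 9.54-fold (7.41 to 12.4) and 7.37-fold (5.77 to 9.48), from under 5 CPM to 41.6 and 36.0 CPM. Cop1, the ubiquitin ligase it recruits, rose 2.46-fold (2.25 to 2.70) with withdrawal and stood at 1.22-fold (1.08 to 1.38) with brequinar. Trib2, also listed, stayed below 20 CPM in these comparisons and was not among the genes measured. It stood at 13.2 CPM at 0 h and 2.04 CPM at 48 h of withdrawal, a ratio of 0.155 (0.0836 to 0.265). With brequinar it stood at 11.9 and 13.9 CPM. The 3 lower genes were Gfi1, Myb and Myc, and their ratios with brequinar at 48 h were 1.86 (1.71 to 2.02), 1.20 (1.15 to 1.25) and 1.17 (1.10 to 1.25). Protein levels were not measured here.

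Granulocyte genes known to need C/EBPα changed in part at 6 h and mostly at 24 and 48 h in both series. The list holds Cebpe, itself a member, so its counts and medians take in that member's own course. With brequinar the values were as follows. At 6 h 3 of 5 measured were lower and none higher (median log2 ratio -0.59, all genes 0.05), namely Elane, Prtn3 and Cebpe itself, while Mpo stood at 0.918-fold (0.897 to 0.940) and Ctsg at 0.953-fold (0.943 to 0.963). At 12 h Prtn3 and Cebpe were lower and Csf3r, the gene of the G-CSF receptor, higher among 6 measured (median -0.43, all genes 0.10). At 24 h 4 of 6 were higher, Cebpe among them, and Ctsg lower (median 1.00, all genes 0.16). At 48 h 5 of 6 were higher, again with Cebpe (median 1.20, all genes 0.04). They were led by Elane, the neutrophil elastase gene, at 7.04-fold (6.47 to 7.67). With withdrawal Csf3r was higher and Prtn3 lower at 6 h among 6 measured (median -0.19, all genes 0.06). Prtn3 stood there at 0.662-fold (0.651 to 0.673), against 0.666-fold (0.655 to 0.676) with brequinar, and Elane at 0.687-fold (0.603 to 0.781). At 12 h, when Cebpa was highest in this series, Cebpe was higher and Ctsg lower among 5 measured (median -0.26, all genes 0.01). At 24 h of withdrawal 4 of 5 were higher (median 1.60, all genes -0.14). At 48 h 5 of 7 were higher and 2 lower (median 1.80, all genes -0.33). Cebpe was among the higher ones at both times. Il6ra, the gene of the interleukin 6 receptor, rose 7.01-fold (5.48 to 9.03) and Csf3r 4.58-fold (3.86 to 5.45) at 48 h of withdrawal. The lower ones were Mpo, the myeloperoxidase gene, at 0.535-fold (0.516 to 0.555) and Ctsg, the cathepsin G gene, at 0.409-fold (0.401 to 0.417). Lyz2 was at 0.291 CPM or less in every condition. It has a near-identical copy, and how shared reads were counted is not given in the sources used here.

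Secondary and tertiary granule genes, many of which need C/EBPε, differed far more between the series at 48 h than Cebpe did. All 7 measured of 8 were higher at 48 h of withdrawal (median log2 ratio 5.94, all genes -0.33), led by Chil3, and 4 of 4 measured at 48 h of brequinar (median 2.42, all genes 0.04). Ltf, the lactoferrin gene, stood at 493 CPM at 48 h of withdrawal and 7.07 CPM at 48 h of brequinar, and Camp, the cathelicidin gene, at 859 and 5.54 CPM. Set directly against withdrawal at 48 h, all 7 measured were lower with brequinar (median log2 ratio -4.15, all genes 0.34), with ratios from 0.00645 (0.00431 to 0.00927) for Camp to 0.605 (0.549 to 0.667) for the collagenase gene Mmp8. Some of these genes were already lower in the 0 h culture of the brequinar series, with ratios of 0.243 (0.153 to 0.373) for Camp and 0.274 (0.150 to 0.477) for Ltf, both under 20 CPM, and 0.634 (0.542 to 0.740) for Ngp, which passed the call. Cebpe itself stood at 659 and 612 CPM in these cultures. At 24 h of withdrawal, when Cebpe was highest, 2 of 3 measured were higher, Chil3 at 14.9-fold (13.6 to 16.3) and Lcn2 at 2.14-fold (2.05 to 2.24), while Ltf stood at 1.78 and Ngp at 23.3 CPM. What free RNA adds to low levels of these genes was not tested.

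**Figure D3:**
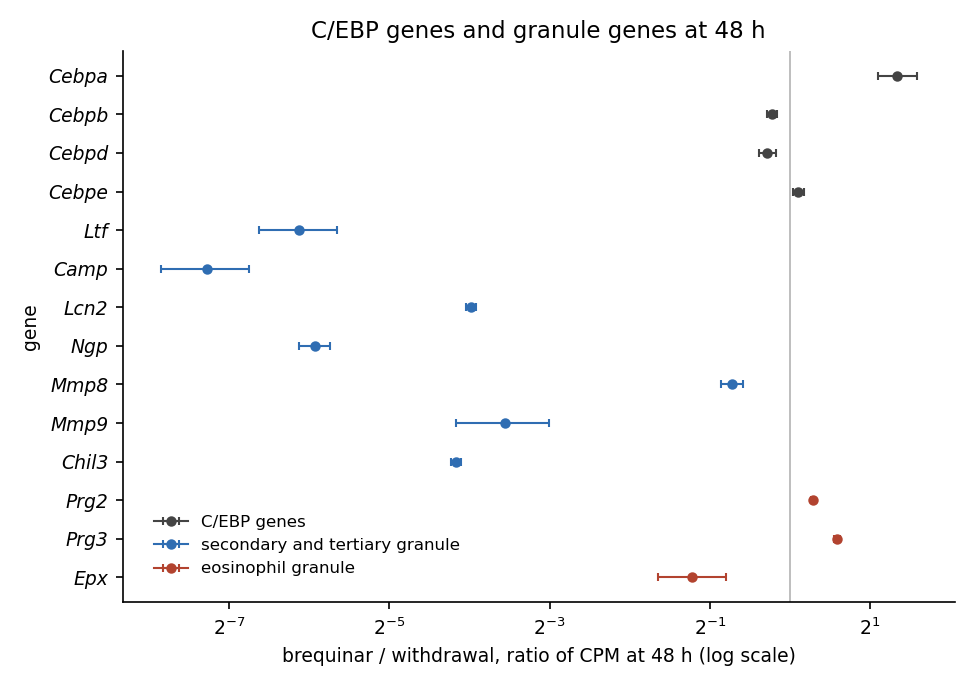
Ratio of CPM at 48 h of brequinar to 48 h of withdrawal (horizontal axis, log scale with base 2) for the 4 C/EBP genes in grey, the 7 measured secondary and tertiary granule genes in blue and 3 eosinophil granule genes in red; points are 1 culture against 1 culture and bars exact 95% counting intervals. The C/EBP genes lie between 0.823 and 2.54, and the blue points between 0.00645 and 0.605.

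Eosinophil granule genes, a further group that depends on C/EBPε, were highest at 24 or 48 h, and Cebpe at 24 h in both series. Prg2, the gene of major basic protein, stood at 684, 749, 914, 2002 and 9165 CPM at 0, 6, 12, 24 and 48 h of brequinar. With withdrawal it stood at 631, 813, 2159, 9559 and 7519 CPM. Both measured genes, Prg2 and Prg3, were higher at 12 h of withdrawal (median log2 ratio 1.94, all genes 0.01). They were also higher at 24 h of withdrawal (3.74, all genes -0.14). With brequinar both were higher at 24 h (1.21, all genes 0.16) and at 48 h (2.70, all genes 0.04). At 48 h of withdrawal all 3 measured were higher, Epx among them (2.57, all genes -0.33). At 12 h Prg2 and Prg3 were lower with brequinar than with withdrawal (median -1.71, all genes 0.09), as Cebpe was. At 24 h they were again lower with brequinar (median -2.30, all genes 0.23), whereas the ratio of Cebpe was 0.933. Epx, the eosinophil peroxidase gene, reached 12.2 CPM at 48 h of brequinar and 28.4 CPM at 48 h of withdrawal. Ear1 and Ear2 had no UMI in any condition. They have near-identical copies as well.

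Within cultures Cebpe was highest in the cells richest in eosinophil granule UMIs. Thinned cells of each condition were ranked by summed UMIs of these genes and cut into 4 equal groups, so the groups describe cells of 1 culture. From the lowest to the highest group Cebpe stood at 309, 486, 584 and 1479 CPM at 24 h of brequinar, and at 291, 338, 431 and 1497 CPM at 48 h. With withdrawal it stood at 438, 609.8, 713 and 1232 CPM at 24 h and at 438, 427, 532 and 923 CPM at 48 h. At 0 h the groups stood at 86.6, 103, 115 and 231 CPM in the brequinar series and at 101, 92.8, 99.7 and 187 CPM in the withdrawal series. The highest group stood apart in both and the intervals of the lower 3 overlapped. The lowest groups at 0 h held no eosinophil granule UMI and the second 203 and 131 CPM, too little for a UMI in every cell. Their split is thus in part not set by these UMIs. Cells with a Cebpe UMI held more eosinophil granule UMIs than cells without in all 10 conditions, for example 19590 against 2776 CPM at 48 h of brequinar and 4342 against 1775 CPM at 24 h.

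Cebpa ran the other way in 3 of the late cultures. It went from 113 (91.7 to 137) CPM in the lowest to 44.7 (31.9 to 60.9) CPM in the highest group at 24 h of brequinar, and from 105 (73.0 to 147) to 25.0 (10.8 to 49.3) CPM at 48 h. At 24 h of withdrawal it went from 89.5 (68.9 to 114) to 21 (11.7 to 34.6) CPM, and at 48 h the intervals of 23.4 (12.5 to 40.1) and 37.8 (23.4 to 57.8) CPM overlapped. Ranked by secondary and tertiary granule UMIs instead, cells showed no common order of Cebpe. At 24 h of brequinar the 2 lowest of these groups held no such UMI and cannot be ranked. Cebpe stood at 686 (633 to 743) CPM in the third group there and at 841 (782 to 904) CPM in the highest. After 24 h of withdrawal the lowest group held none and the second 88.1 CPM, too little for a UMI in every cell. With brequinar for 48 h the lowest also held none and the second 149 CPM. Some cells of these second groups thus tie with the lowest group, and their split from it is in part not set by these UMIs. Cebpe went down at 24 h of withdrawal, from 852 (785 to 922) over 809.8 and 722 to 609.8 (554 to 670) CPM, and cells with a Cebpe UMI held 681 CPM of these granule genes against 1580 CPM in cells without. The groups stood at 555, 679, 735 and 581 CPM at 48 h of brequinar and at 709.9, 512, 438 and 659 CPM at 48 h of withdrawal. Over the same groups Cebpd went from 183 (139 to 236) to 312 (254 to 380.1) CPM at 48 h of brequinar and from 137 (111 to 167) to 203 (171 to 239) CPM at 24 h of withdrawal. The lowest and highest groups overlapped at 24 h of brequinar, at 156 (131 to 184) and 182 (155 to 212) CPM, and so they did at 48 h of withdrawal, at 259 (219 to 305) and 286 (244 to 335) CPM, where the third group was highest at 348 CPM.

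**Figure D4:**
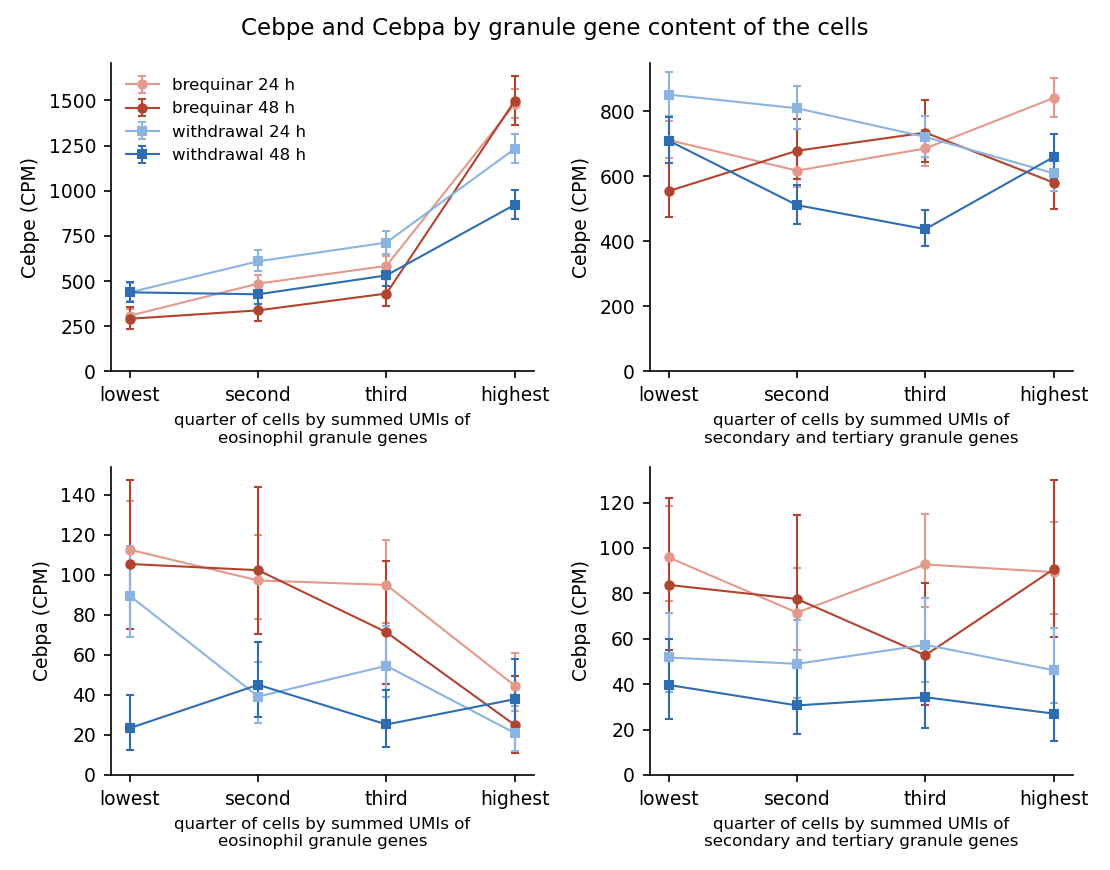
Level of Cebpe (top) and Cebpa (bottom) in CPM (vertical axes, from 0) in 4 equal groups of thinned cells ranked by summed UMIs of eosinophil granule genes (left) or of secondary and tertiary granule genes (right), at 24 h (light) and 48 h (dark) of brequinar (red circles) and withdrawal (blue squares); bars are exact 95% counting intervals. On the left Cebpe is highest in the group richest in eosinophil granule UMIs in all 4 cultures, 923 to 1497 CPM, and on the right its order differs between cultures.

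Acute phase and inflammatory genes linked to C/EBPβ and C/EBPδ mostly lay below 20 CPM. Of 8 listed, 3 were measured at 48 h of brequinar, 2 higher and 1 lower (median log2 ratio 3.39, all genes 0.04), and 4 at 48 h of withdrawal, 3 higher and 1 lower (median 3.53, all genes -0.33). Hp, the haptoglobin gene, stood at 35.2, 39.3, 46.4, 514 and 1713 CPM with brequinar and at 45.9, 49.1, 111, 603 and 1865 CPM with withdrawal. Cd14, the lipopolysaccharide co-receptor gene, rose 24.2-fold (18.7 to 31.6) and 49.1-fold (38.4 to 63.6) at 48 h. Il6, the interleukin 6 gene, rose 2.65-fold (2.45 to 2.87) at 6 h of brequinar and 1.76-fold (1.60 to 1.93) at 6 h of withdrawal, when Cebpb was at its early peak, and fell to 0.528-fold (0.439 to 0.632) and 0.222-fold (0.171 to 0.282) at 48 h.

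The genes with the course most like each member were found among 4274 genes that reached 50 CPM in a condition, by Pearson's r of log2(CPM + 5) over the 10 conditions. These share 1 pool and, at 0 h, nearly 1 state, so r is a description. Cebpa was most like Stk11 (r = 0.93), Ptpn7 (0.91), Grb2 (0.91), Slc38a10 (0.90) and H1fx (0.89), of which Stk11 ranged from 52.9 to 82.3 CPM. Cebpb was most like Neat1, a long non-coding nuclear RNA (0.96), Ypel5 (0.95), Mafg (0.94), Mtm1 (0.94) and Mbnl2 (0.94). Neat1 ranged from 70.5 to 1002 CPM. Genes most like Cebpd included Sp100, Hp, Mpp1 and Rps6ka1 (0.99 each). Cebpe was most like Mtus1 (0.98), Cited2 (0.97), Chst12 (0.97), B3gnt8 (0.97) and Nin (0.97). Among the members themselves r was 0.93 for Cebpd and Cebpe, 0.60 for Cebpb and Cebpd and -0.25 for Cebpa and Cebpb.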

How the data were processed

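Single cells of 10 cultures carried a barcode for their culture, were mixed, and went through 2 runs of droplet RNA sequencing (10x), per the labels. The values the authors deposited are UMI counts for each gene in each cell, not normalized. The spliced matrix was used, and the unspliced one was not. Cell Ranger, kallisto 0.46 and bustools 0.39.4 appear in the submitters' processing notes, which assign no step to them. The genome build was not given in the sources used here. Of 54838 gene IDs, 54723 were given a symbol from a table of gene names, and IDs of the same symbol were summed. Cultures and barcode calls come from deposited tables. Barcodes the authors called doublets (2777, 17.8%) or negative (265) were left out, no further doublet caller was run, and the runs carry no mark, so a barcode in both would count as 1 cell. Cells used held 63.9% of all spliced UMIs.

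Counts were summed per culture and scaled to CPM. In these sums 3 counts equal 0.151 to 0.573 CPM, the limit a count of 0 allows. Intervals are exact (Poisson for levels, conditional binomial for ratios, Clopper-Pearson for shares), and PCR copies are collapsed by UMI. Log2 ratios of lists use a pseudocount of 5 CPM. Cell cycle classes were scored with scanpy 1.11.5, and intervals computed with scipy 1.17.1. On simulated data for brequinar 48 h against 0 h, 199 of 200 changed genes among 5488 tested were called and no unchanged one. The changed genes were all set past the 1.5-fold call, and counts varied by counting error only. Differences between cultures were not simulated, so this checks the arithmetic and gives no rate of false calls. The members and lists were chosen with earlier results of these data known. Besides the members, the rule for named genes took 2 to 4 genes of each list with the largest ratios and the 5 genes most like each member, of which 1 for Cebpd is not reported here. List genes named beyond the largest ratios of their comparison were chosen after their values were seen. Among these are Batf, Runx1, Cop1, Trib2, Gfi1, Myb, Myc, Mpo, Prtn3, Ctsg, Lyz2, Ngp, Mmp8, Lcn2, Epx, Ear1, Ear2 and Il6. Alternatives covered the call, scaling, cell filters, thinning, equal weights of cells and removal of free RNA.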

Additional observations from a re-analysis of the deposited data

Results flagged for a closer look

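In 4 cases a member's ratio to 0 h lay on opposite sides of 1 in the 2 series with neither counting interval including 1. Each arm is 1 culture, so the difference was not tested. At 12 h Cebpa stood at 0.670 with brequinar and 1.78 with withdrawal, and Cebpe at 0.518 with brequinar and 1.99 with withdrawal. Cebpa stood at 1.49 with brequinar and 0.892 with withdrawal at 24 h, and at 1.36 and 0.531 at 48 h.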

How the results depend on the processing

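Of 432 ratios of members recomputed under 9 alternatives, none changed direction among the called ones, 350 stayed within the counting interval and 82 moved beyond it. A call changed in 13, all of which keep their direction, and those that bear on a result are given beside it; the remaining one was Cebpd between the series at 6 h, called lower (0.580) in thinned cells. At 2-fold in place of 1.5-fold the calls numbered 7 with brequinar, 6 with withdrawal and 3 between the series. Under every other alternative they numbered 10 to 12, 11 to 12 and 5 to 7. Shares of all genes called were computed only at 1.5-fold with the main settings. These counts of members therefore have no share of all genes beside them. Weighting to cell cycle classes and leaving out the 2% of cells richest in granule genes were chosen after seeing the data. No paired analysis was possible because each condition is 1 culture and the 2 runs are not marked in the matrix, and leaving out a replicate could not be done for the same reason. With a pseudocount of 1 CPM the 5 genes most like each member were the same for Cebpa, Cebpb and Cebpe, and 4 of 5 for Cebpd. Depth limits Cebpa most, with 214 UMIs at 48 h of withdrawal.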
